A study of Homo sapiens with 12 samples.

Results

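The chaperone genes described here are 67 of the 25370 genes in the count table, and 67 of the 14209 genes with a mean of at least 1 CPM (counts scaled to a common library total with TMM factors). They were chosen by symbol and by measured level. The symbols are those of the HSP70 and HSP110 genes (HSPA and HSPH1), the HSP90 genes (HSP90A), the mitochondrial HSP60 and HSP10 genes (HSPD1 and HSPE1), the J-domain genes (DNAJA, DNAJB and DNAJC) and the CCT chaperonin genes (CCT2 to CCT8), with HSPA5 and DNAJB9 left out, and 73 rows matched them. The level had to reach a mean of 1 CPM over the 12 libraries, which left out 6 rows. Just inside that limit were DNAJB7 at 1.03 CPM and HSPA6 at 1.14 CPM, and just outside it was HSPA12B at 0.913 CPM. The other rows left out (HSP90AB4P, HSPA7, CCT8L2, DNAJB8 and DNAJB3) were at 0.0117 to 0.0704 CPM. The set is not purely cytosolic as its working name would have it. By textbook location 8 members were assigned to mitochondria (HSPA9, HSPD1, HSPE1, DNAJA3, DNAJC11, DNAJC15, DNAJC19 and DNAJC30). Another 5 were assigned to the endoplasmic reticulum (HSPA13, DNAJB11, DNAJC1, DNAJC3 and DNAJC10). The other 54 were assigned to neither, although some of them may also lie there, so the set is called chaperone genes below. Of these 54, CCT6P1 and CCT6P3 are copies of CCT6 that the annotation does not list as protein-coding (CCT6P1 as a transcribed pseudogene).

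RNA-seq counts came from T47D cells, an established luminal breast cancer line that carries the estrogen receptor, in 4 groups of 3 libraries lettered a to c. Vehicle cells had neither agent, anastrozole cells had 10 nM of this aromatase inhibitor, E2 cells had 0.1 nM estradiol, and anastrozole plus E2 cells had both doses together. All groups, vehicle included, had spent 48 h in 5% charcoal-stripped serum and then 24 h without serum, so every value comes from hormone-deprived and serum-starved cells. The labels give a treatment of 12 h whereas the study's methods give a longer one, and the time cannot be settled here. The data cover 1 line. The study describes its gene expression data as independent experiments, but the labels do not say how the replicates of these libraries were made. Part of the spread between these libraries may therefore be technical. The p-values rest on a spread largely pooled over genes, so a gene's own replicates weigh little. With anastrozole against vehicle, HSP90AA1 and HSP90AB1 had an SE of 0.038 and 0.039, at anastrozole SDs of 161 and 60.1 CPM.

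Molecular chaperones bind unfolded or partly folded proteins and release them in cycles driven by ATP. HSP70 proteins hold short exposed stretches, J-domain proteins deliver clients to them and start ATP hydrolysis, and HSP110 proteins act as their nucleotide exchange factors. HSP90 takes over many of these clients, among them steroid receptors, and the estrogen receptor without hormone sits in such a complex with co-chaperones. CCT is a ring-shaped chaperonin that folds actin and tubulin, and HSP60 with its lid HSP10 does related work in mitochondria. Heat shock factor 1 switches on many of these genes under protein stress by binding heat shock elements, while HSPA8 and HSP90AB1 are transcribed at a high level without stress.

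The libraries held 9914253 to 17009776 gene counts, and 3 counts correspond to 0.177 to 0.303 CPM. No 2 replicates matched within counting noise, since their chi-square over its degrees of freedom was 1.27 to 4.62, where counting noise alone gives 1, and it was highest between anastrozole a and c. The line's markers were present, with the summed level of 10 luminal genes (ESR1, GATA3, FOXA1 and others) at 10396 to 10532 CPM in vehicle, 9421 to 10215 CPM in anastrozole, 9814 to 10052 CPM in E2 and 10089 to 10288 CPM in the combination, so every vehicle library was above all others. By edgeR, SPDEF (log2 fold change -0.44, adjusted p = 1.1e-31), KRT19 (-0.16), FOXA1 (-0.14), ESR1 (-0.14) and KRT8 (-0.10) were called lower with E2. SPDEF (-0.23) and PGR (-0.13) were called lower with anastrozole, and SPDEF (-0.26) with the combination. In the interaction SPDEF (0.40), KRT19 (0.22) and KRT8 (0.13) were called. In anastrozole against E2, PGR was called lower (-0.19) and SPDEF higher (0.22), and in the combination against E2 KRT19 (0.11) and SPDEF (0.18) were called higher. With E2 against vehicle, PGR (0.06, adjusted p = 0.1) and TFF1 (0.10, adjusted p = 0.9) were not called. TFF1 was low, at group means of 1.05 to 1.73 CPM. The part of these markers in the chaperone changes was not tested. The 3 leukocyte markers summed to 3.27 to 4.59 CPM in vehicle, 5.46 to 7.14 CPM in anastrozole, 5.02 to 5.83 CPM in E2 and 5.00 to 5.79 CPM in the combination. The leukocyte genes PTPRC and CD3E were near 0, with PTPRC at 0 CPM in every treated library. Nearly all of the sum came from CD68, which was called higher with anastrozole (edgeR, log2 fold change 0.71, adjusted p = 0.0051) and with E2 (0.55, adjusted p = 0.015). Its interaction term was called too (-0.76, adjusted p = 0.015), and its part in the changes of the chaperone genes was not tested. The 3 endothelial markers summed to 0.0715 to 0.622 CPM and the 3 basal ones to 1.75 to 2.88 CPM over all libraries. The 4 fibroblast markers summed to 91.6 to 95.6 CPM in vehicle, 84.8 to 93.0 CPM in anastrozole, 80.1 to 90.9 CPM in E2 and 94.7 to 100 CPM in the combination, nearly all of it from COL1A1. That gene was called higher in the combination than in E2 (log2 fold change 0.17, adjusted p = 0.0017) and in the interaction (0.25, adjusted p = 0.0039), and its part in the chaperone changes was not tested either.

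Chaperone genes took 1.198 to 1.292% of all gene counts. Together they summed to 12405 to 12626 CPM in vehicle, 11828 to 12706 CPM in anastrozole, 12900 to 13015 CPM in E2 and 12475 to 12609 CPM in anastrozole plus E2, so the E2 libraries were above every other library. HSPA8, HSP90AA1 and HSP90AB1 alone made up 52.5 to 54.3% of the members' counts and therefore set most of that sum. Without them the other members still summed to 5961 to 5991 CPM in E2 and to 5624 to 5900 CPM in the other groups. The members were more abundant than the genes around them, with a median level of 53.9 CPM against 29.4 CPM for genes of at least 1 CPM. Their median coefficient of variation between replicates, averaged over the 4 groups for each gene, was 4.40% against 5.76%. Counting noise is relatively smaller at higher levels and the sets were not matched on level, so nothing is read from this difference.

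Per kilobase of transcript, the constitutive HSP70 gene HSPA8 was highest with a mean of 921 CPM per kb over the 12 libraries. The stress-inducible HSP90 gene HSP90AA1 followed with 848 CPM per kb and its constitutive counterpart HSP90AB1 with 747 CPM per kb. Next came the chaperonin subunits CCT3 (193 CPM per kb) and CCT8 (189 CPM per kb), HSPD1 (188 CPM per kb), CCT2 (157 CPM per kb) and CCT6A (128 CPM per kb). The highest J-domain gene was DNAJB11, which serves HSP70 of the endoplasmic reticulum, with 124 CPM per kb, close to mitochondrial HSPA9 with 102 CPM per kb. At the other end, the strictly heat-inducible HSPA6 was at 0.486 CPM per kb and DNAJB7 at 0.402 CPM per kb. HSPE1 stood far below its partner, with 16.8 CPM per kb against 188 CPM per kb for HSPD1. In the annotation 10.5% of the exon bases of HSPE1 also belong to the readthrough gene HSPE1-MOB4, which is listed at 0 counts against 1543 for HSPE1, and the part of such shared or multiply placed reads in the low level of HSPE1 was not tested.

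**Figure D1:**
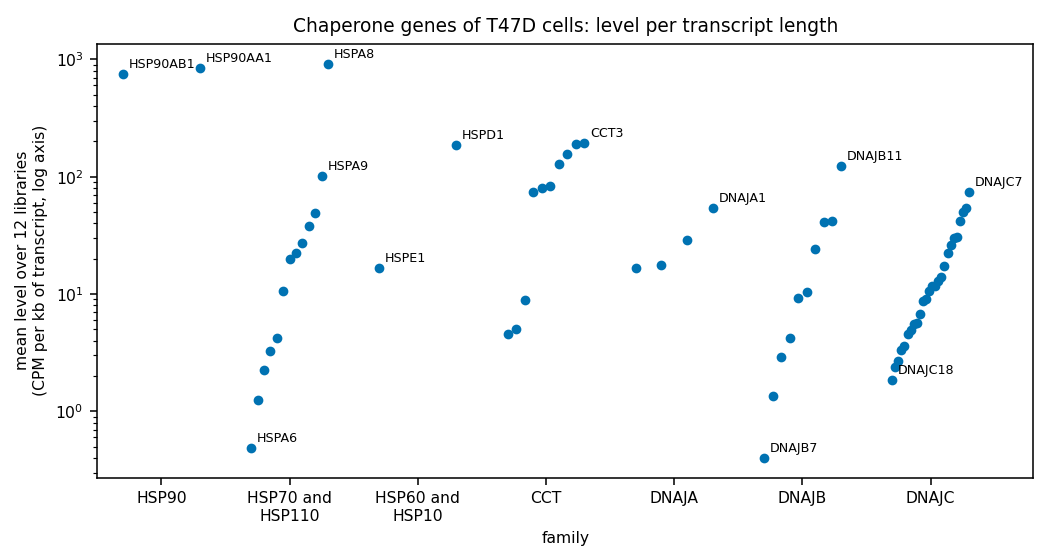
Mean level of each of the 67 chaperone genes over 12 libraries, in CPM per kb of transcript on a log axis, with 1 point per gene and genes sorted within their family. HSPA8 (921), HSP90AA1 (848) and HSP90AB1 (747) stand above all others, and HSPA6 (0.486) and DNAJB7 (0.402) are lowest.

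RefSeq start regions (250 bases before to 50 after the start, GRCh38.p14) were found for 60 of the 67 members. They were searched on both strands for a strict heat shock element made of 3 units, GAA, any 2 bases, TTC, any 2 bases and GAA, or its reverse complement, with overlapping matches joined. It occurred in 7 of the 60 members (11.7%) and in 0.608% of the 27305 genes with such a region. Of the 17 members with a region that passed the test in at least 1 comparison, 5 had it (HSPA8, HSP90AA1, HSP90AB1, HSPD1 and DNAJB6). The matches are shown because the most abundant members of the HSP70, HSP90 and HSP60 families hold them. Capitals mark the element, lower case gives 6 bases on each side (5 before that of HSPD1, where the region ends), and each is written 5′ to 3′ on the gene's strand.
HSPA8, bases -230 to -218 from the start: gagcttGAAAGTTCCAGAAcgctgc
HSPA8, bases -55 to -43: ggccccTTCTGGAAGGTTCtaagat
HSP90AA1, bases -88 to -76: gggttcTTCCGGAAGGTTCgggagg
HSP90AB1, bases -165 to -153: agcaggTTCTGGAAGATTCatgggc
HSP90AB1, bases -112 to -100: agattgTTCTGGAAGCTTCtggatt
HSPD1, bases -245 to -228: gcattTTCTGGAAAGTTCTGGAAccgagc
HSPA6, bases -74 to -62: gaaaggTTCGCGAAAGTTCgcggcg
DNAJB6, bases -131 to -119: agccgaGAACCTTCGCGAAggtggg
DNAJA1, bases 4 to 16 after the start: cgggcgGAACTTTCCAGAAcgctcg

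In HSPD1 overlapping matches join into an element of 4 units. HSPA1A and HSPA1B, the classic heat-inducible genes, had no match to these letters in this window, from which nothing follows about the factor. The full estrogen response element (GGTCA, any 3 bases, TGACC) was in 0 of 60 members and in 0.0732% of all genes with a region. The CCAAT box was in 41.7% of members against 39.7% of all genes, and TATAAA in 15% against 14%. The stretch before the start is given for the most abundant gene of each of the HSP70, HSP90 and HSP60 families.
HSPA8, GRCh38.p14 chr11:123062137-123062386, minus strand: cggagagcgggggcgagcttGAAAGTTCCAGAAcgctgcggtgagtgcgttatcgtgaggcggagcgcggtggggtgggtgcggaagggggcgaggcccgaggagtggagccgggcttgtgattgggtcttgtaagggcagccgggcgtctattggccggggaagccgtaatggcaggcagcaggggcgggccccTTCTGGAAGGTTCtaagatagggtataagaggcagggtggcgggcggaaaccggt
HSP90AA1, GRCh38.p14 chr14:102087045-102087294, minus strand: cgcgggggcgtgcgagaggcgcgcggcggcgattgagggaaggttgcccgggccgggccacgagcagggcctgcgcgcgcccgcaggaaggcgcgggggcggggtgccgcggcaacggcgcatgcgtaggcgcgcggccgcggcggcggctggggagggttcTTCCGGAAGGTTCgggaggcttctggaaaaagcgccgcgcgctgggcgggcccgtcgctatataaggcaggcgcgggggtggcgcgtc
HSPD1, GRCh38.p14 chr2:197499841-197500090, minus strand: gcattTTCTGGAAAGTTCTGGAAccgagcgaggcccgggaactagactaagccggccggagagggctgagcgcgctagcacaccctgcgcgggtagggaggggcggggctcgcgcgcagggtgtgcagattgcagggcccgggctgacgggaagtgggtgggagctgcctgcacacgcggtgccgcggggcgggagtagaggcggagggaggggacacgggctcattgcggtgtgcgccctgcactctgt

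The first comparison asked which chaperone genes E2 alone moved against vehicle. With E2, 10 members rose and 3 fell at an adjusted p under 0.05 (edgeR, quasi-likelihood F test, Benjamini-Hochberg over 21132 genes), and such genes are called below. The changes were small, from 0.865-fold to 1.31-fold. The 10 that rose are 14.9% of the members, where 8.92% of genes of at least 1 CPM rose, and the 3 that fell are 4.48%, where 8.79% fell. Over all genes tested 12.0% were called. The median log2 fold change of the members was 0.03 against 0.01 for genes of at least 1 CPM, and it was -0.01 once the GC trend described below was removed. The 95% interval lay within 1.2-fold of no change for 42 members. All E2 libraries were above all vehicle libraries in 15 members (22.4%, with 17.3% of genes of at least 1 CPM) and below them in 6 (8.96%, with 16.7%). By family, 5 of 13 HSP70 and HSP110 genes rose and 2 fell, and both HSP90 genes rose. Of the others, HSPD1, 1 of 10 DNAJB genes and 1 of 10 CCT rows (8 genes and the 2 non-coding copies) rose, 1 of 26 DNAJC genes fell, and none of the 4 DNAJA genes was called. The count of 13 depended on single libraries. It was 6 without vehicle c or without E2 a (with 8.24% and 9.21% of all genes tested called), 8 without E2 b or E2 c (9.55% and 8.45%), 11 without vehicle a (8.9%) and 14 without vehicle b (13.3%).

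The calls that held in every setting tried were those of HSPA13 and HSPA4L. HSPA13 (hg19 chr21:15743436-15755805, minus strand), an HSP70-like ATPase of the endoplasmic reticulum, was at 99.2, 103 and 100 CPM in vehicle and at 120, 118 and 116 CPM in E2. All E2 libraries were above all vehicle libraries, with a log2 fold change of 0.23 (SE 0.043, adjusted p = 7.5e-06). HSPA4L (hg19 chr4:128702976-128761888, plus strand), an HSP110 exchange factor, was at 40.4, 41.0 and 41.0 CPM in vehicle and at 47.8, 48.4 and 52.6 CPM in E2. Here too the groups were apart, with a log2 fold change of 0.28 (SE 0.059, adjusted p = 6.1e-05). Both were called in all 10 other settings and in 6 of 6 fits that left out a library. With the GC offset described below their log2 fold changes were smaller, at 0.12 for HSPA13 and 0.19 for HSPA4L.

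Among the abundant genes the rises were steady but small. HSP90AA1 (hg19 chr14:102547079-102606036, minus strand) was at 2739, 2694 and 2677 CPM in vehicle and at 2841, 2864 and 2940 CPM in E2. The groups did not overlap, and the log2 fold change was 0.09 (SE 0.026, adjusted p = 0.0048). HSP90AB1 (hg19 chr6:44213903-44221625, plus strand) was at 1877, 1829 and 1818 CPM in vehicle and at 1955, 1950 and 1948 CPM in E2, again without overlap (log2 fold change 0.08, SE 0.026, adjusted p = 0.018). HSPA8 (hg19 chr11:122928197-122933938, minus strand), the third of the abundant genes, did not pass the test. Its vehicle libraries held 2172, 2147 and 2128 CPM and its E2 libraries 2113, 2119 and 2166 CPM, which overlap (log2 fold change -0.01, 95% interval -0.06 to 0.04). HSP90AA1 lost its call with the GC offset described below and without vehicle c or E2 c. HSP90AB1 lost it with the replicate letter as a block, with all 12 libraries in the fit, and without vehicle c or any 1 of the E2 libraries. Over all settings their log2 fold changes stayed between 0.06 and 0.10 and between 0.08 and 0.10.

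**Figure D2:**
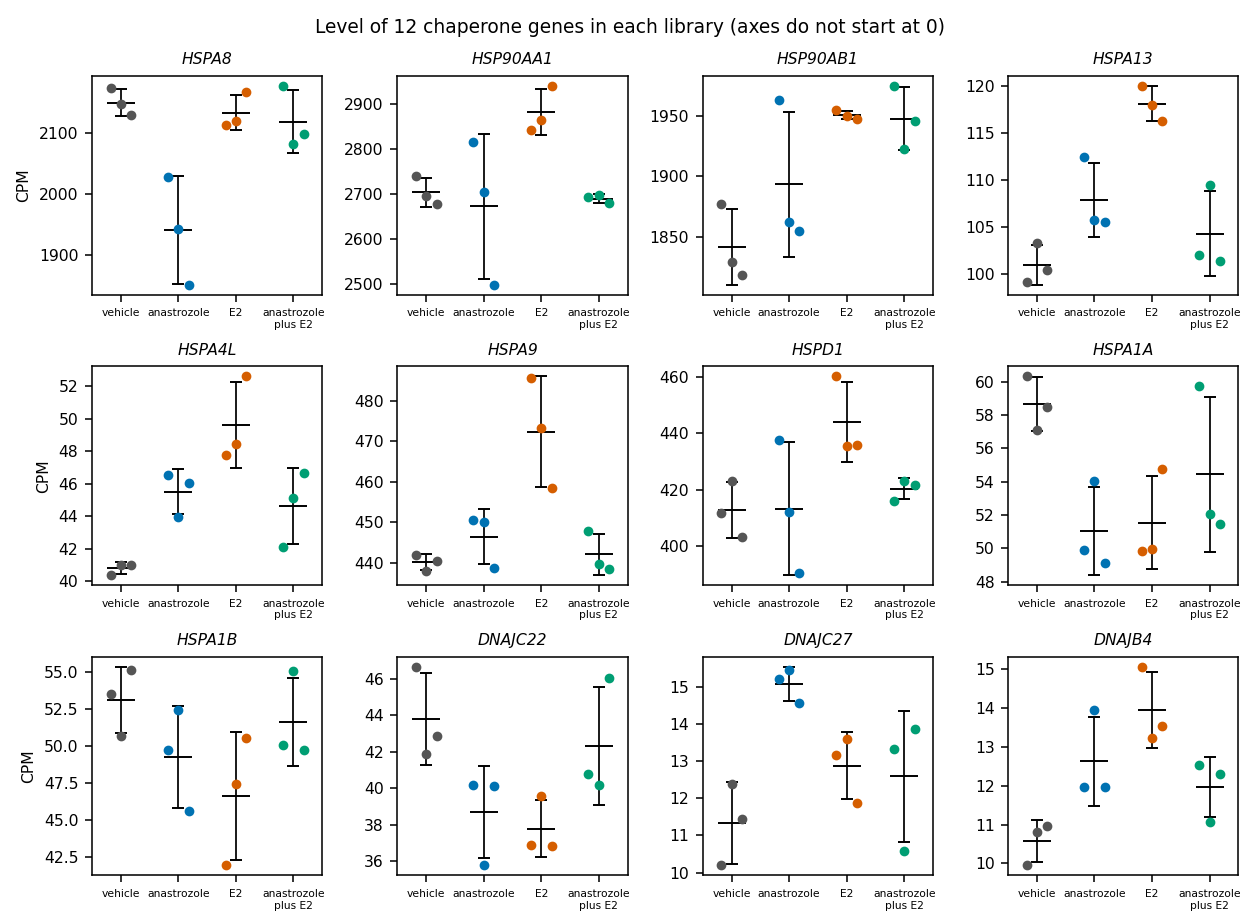
Level in CPM of 12 chaperone genes in each of the 12 libraries, with 3 points per group, a horizontal line at the group mean and bars of 1 SD; the vertical axes do not start at 0. The E2 libraries are above the vehicle libraries for HSP90AA1, HSP90AB1, HSPA13, HSPA4L, HSPA9, HSPD1 and DNAJB4, and HSPA8 is lowest in the anastrozole libraries.

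The mitochondrial HSP70 and HSP60 genes HSPA9 and HSPD1 and the chaperonin subunit CCT8 were also called higher with E2. HSPA9, the import motor of the matrix, was at 442, 438 and 441 CPM in vehicle and at 486, 473 and 458 CPM in E2 (log2 fold change 0.10, SE 0.031, adjusted p = 0.014). HSPD1, the HSP60 chaperonin, was at 412, 423 and 403 CPM in vehicle and at 460, 436 and 436 CPM in E2 (log2 fold change 0.10, SE 0.032, adjusted p = 0.012). CCT8 was at 351, 340 and 329 CPM in vehicle and at 362, 363 and 376 CPM in E2 (log2 fold change 0.11, SE 0.032, adjusted p = 0.0093). In each of the 3 genes the groups were apart. With the GC offset described below all 3 calls were lost, at log2 fold changes of 0.05 for HSPA9, 0.04 for HSPD1 and 0.05 for CCT8. HSPA9 also lost its call without vehicle c, E2 a or E2 b, HSPD1 without vehicle c or E2 a, and CCT8 without vehicle c or E2 c. The other 7 protein-coding CCT genes were not called, at log2 fold changes of -0.05 to 0.10, nor were the copies CCT6P1 (0.08) and CCT6P3 (0.14). HSPE1, the partner of HSPD1, was not called either (-0.05), and the median over the 8 mitochondrial members was -0.05.

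Smaller members called higher were the HSP110 gene HSPA4, the ribosome-associated HSPA14 and DNAJB4, a J-domain partner of HSP70. HSPA4 was at 173 to 179 CPM in vehicle and at 186 to 194 CPM in E2 (log2 fold change 0.10, SE 0.037, adjusted p = 0.045), and it kept its call in 2 of 10 other settings. HSPA14 was at 77.7 to 87.2 CPM in vehicle and at 90.2 to 91.6 CPM in E2 (log2 fold change 0.14, SE 0.046, adjusted p = 0.023). It was called in 1 of 6 fits that left out a library. DNAJB4 was at 9.95, 10.8 and 11.0 CPM in vehicle and at 15.1, 13.2 and 13.5 CPM in E2, the largest called difference of the comparison (log2 fold change 0.39, SE 0.11, adjusted p = 0.0063).

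The 3 members that fell with E2 were the heat-inducible HSP70 genes HSPA1A and HSPA1B and the J-domain gene DNAJC22. HSPA1A was at 60.3, 57.1 and 58.5 CPM in vehicle and at 49.84, 49.98 and 54.77 CPM in E2 (log2 fold change -0.19, SE 0.055, adjusted p = 0.009). HSPA1B was at 53.6, 50.7 and 55.2 CPM in vehicle and at 42.0, 47.4 and 50.5 CPM in E2 (log2 fold change -0.18, SE 0.057, adjusted p = 0.015). These genes are nearly identical copies side by side in the MHC region, so reads may be split or lost between them and they are not independent measurements. DNAJC22 was at 46.7, 41.9 and 42.9 CPM in vehicle and at 36.9, 39.6 and 36.9 CPM in E2 (log2 fold change -0.21, SE 0.061, adjusted p = 0.0087). Vehicle and E2 libraries did not overlap in any of the 3. With the GC offset the calls of HSPA1A (-0.08) and HSPA1B (-0.09) were lost and that of DNAJC22 was not. HSPA1A lost its call without vehicle a, E2 a or E2 b, HSPA1B without vehicle c or E2 a, and DNAJC22 without vehicle a or E2 c. Of the other heat-inducible members HSP90AA1 was called higher, as given above, and HSPH1, DNAJB1 and HSPA6 were not called. HSPH1 was at 56.1 to 58.4 CPM in vehicle and 53.9 to 57.1 CPM in E2, DNAJB1 at 94.4 to 102.5 CPM and 91.8 to 99.2 CPM, and HSPA6, with 9 to 18 counts a library, at 1.07 to 1.46 CPM and 0.625 to 1.42 CPM.

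The second comparison asked the same of anastrozole alone. Against vehicle 1 member rose (1.49% of members, with 2.06% of genes of at least 1 CPM) and 3 fell (4.48%, with 3.36%), and 3.67% of all genes tested were called. The members' shares were thus near the background, and 12 members had an unadjusted p under 0.05. All anastrozole libraries were above all vehicle libraries in 7 members (10.4%, with 11.1% of genes of at least 1 CPM) and below them in 11 (16.4%, with 11.9%). HSPA8 was at 2172, 2147 and 2128 CPM in vehicle and at 2028, 1942 and 1851 CPM in anastrozole. All anastrozole libraries were below all vehicle libraries, with group means of 2149 ± 22.1 and 1940 ± 88.4 CPM (SD, n = 3; log2 fold change -0.15, SE 0.039, adjusted p = 0.0094). HSPA1A was at 49.9, 54.1 and 49.1 CPM in anastrozole, again below vehicle (log2 fold change -0.20, SE 0.064, adjusted p = 0.046). DNAJC4 was at 53.9, 48.7 and 52.4 CPM in vehicle and at 42.5, 41.7 and 48.2 CPM in anastrozole (log2 fold change -0.23, SE 0.068, adjusted p = 0.031). DNAJC4 shares 10.6% of its exon bases with NUDT22 on the same strand.

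DNAJC27, a Rab-like GTPase with a J domain, was the 1 member higher with anastrozole. It was at 10.2, 12.4 and 11.4 CPM in vehicle and at 15.2, 15.5 and 14.6 CPM in anastrozole, without overlap (log2 fold change 0.41, SE 0.11, adjusted p = 0.017). None of these calls held in all fits that left out a library. HSPA8 lost its call without vehicle a, vehicle c or anastrozole b, HSPA1A without any 1 of the 6 libraries, and DNAJC4 and DNAJC27 without vehicle a, vehicle c, anastrozole a or anastrozole b. The count of called members was then 0 without vehicle a, vehicle c or anastrozole b (with 1.36%, 0.904% and 1.42% of all genes tested called). It was 1 without anastrozole a (1.16%), and 3 without vehicle b or anastrozole c (3.61% and 7.81%). Over all settings the log2 fold change of HSPA8 stayed between -0.18 and -0.11 and its adjusted p reached 0.14. HSP90AA1, at 2815, 2703 and 2497 CPM with anastrozole, had the widest spread of the abundant genes in this group and was not called (log2 fold change -0.02, 95% interval -0.09 to 0.06).

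**Figure D3:**
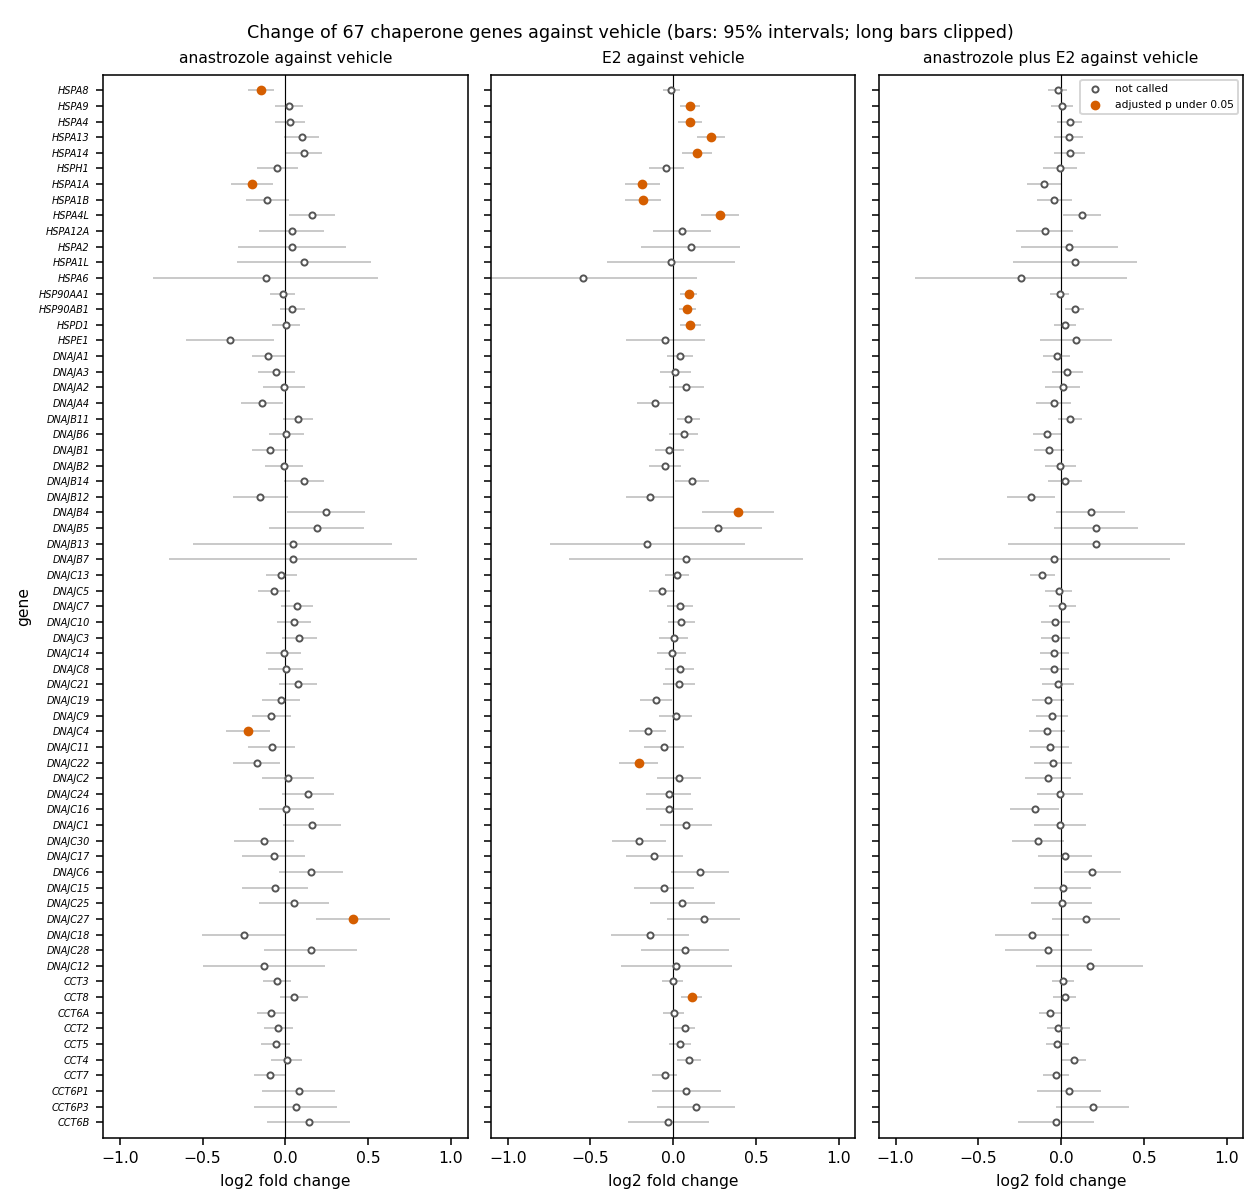
Log2 fold change against vehicle of each of the 67 chaperone genes with anastrozole, E2 and both, with bars for 95% intervals (long bars are clipped at the panel edge); filled points passed an adjusted p of 0.05. E2 has 13 filled points, anastrozole 4 and anastrozole plus E2 none.

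With both agents together no member was called against vehicle. In that comparison 5.04% of all genes tested were called, 3.93% of genes of at least 1 CPM rose and 3.43% fell. By an unadjusted p under 0.05 there were 7 members, DESeq2 called 0 and limma-voom 1 (with 2.27% and 2.21% of all genes tested). The interval lay within 1.2-fold for 49 of 67 members. All combination libraries were above all vehicle libraries in 5 members (7.46%, with 12.3% of genes of at least 1 CPM) and below them in 6 (8.96%, with 11.3%). Of the 10 genes called higher with E2 against the same vehicle libraries, HSPA4L, DNAJB4 and HSP90AB1 were among those 5 and the other 7 overlapped vehicle. HSPA13 was at 102, 110 and 101 CPM with both agents, which overlaps vehicle (log2 fold change 0.05, 95% interval -0.04 to 0.13), and HSP90AA1 at 2692, 2697 and 2679 CPM, within the vehicle range (log2 fold change -0.01, 95% interval -0.07 to 0.05). HSPA4L was at 42.1, 45.1 and 46.7 CPM (log2 fold change 0.13, 95% interval 0.01 to 0.24, adjusted p = 0.26) and DNAJB4 at 12.5, 11.1 and 12.3 CPM (log2 fold change 0.18, 95% interval -0.03 to 0.39, adjusted p = 0.46), both between vehicle and E2 by their means. HSP90AB1 held 1975, 1923 and 1946 CPM, and although it was not called (log2 fold change 0.08, SE 0.030, adjusted p = 0.097) it passed with limma-voom, with the replicate block and with the GC offset described below.

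A direct comparison of both agents with E2 alone tests the change that comes with adding anastrozole to E2. Here 5 members fell (7.46% of members, with 5.22% of genes of at least 1 CPM) and 0 rose (with 4.78%), and 6.74% of all genes tested were called. HSPA13 fell from 120, 118 and 116 CPM in E2 to 102, 110 and 101 CPM with both (log2 fold change -0.18, SE 0.039, adjusted p = 0.00032). HSP90AA1 fell from 2841, 2864 and 2940 CPM to 2692, 2697 and 2679 CPM (log2 fold change -0.10, SE 0.027, adjusted p = 0.0073). HSPA9 fell from 486, 473 and 458 CPM to 448, 440 and 439 CPM (log2 fold change -0.09, SE 0.030, adjusted p = 0.032). These 3 are genes that had risen with E2 alone, and since both comparisons use the same E2 libraries the values are not independent.

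The other 2 had not been called with E2 alone. DNAJC13, an endosomal J-domain protein, was at 180, 179 and 185 CPM in E2 and at 162, 169 and 164 CPM with both (log2 fold change -0.13, SE 0.035, adjusted p = 0.004). DNAJB6, which keeps aggregation-prone proteins soluble, was at 109.9, 104 and 106 CPM in E2 and at 92.2, 100.3 and 96.2 CPM with both (log2 fold change -0.15, SE 0.040, adjusted p = 0.0076). In all 5 genes the libraries of the groups did not overlap, and over all members 17 were below E2 without overlap (25.4%, with 14.0% of genes of at least 1 CPM) and 2 above it (2.99%, with 14.1%). HSPA13 and DNAJC13 kept their calls in 6 of 6 fits that left out a library. With the GC offset described below both calls were lost, each at a log2 fold change of -0.07. Those of HSP90AA1 (-0.07) and HSPA9 (-0.04) were lost with it too, and that of DNAJB6 was kept. HSPA9 lost its call without E2 a, E2 b or combination b or c, HSP90AA1 without E2 c or combination c, and DNAJB6 without E2 a or combination a. The count was 3 without E2 a or combination c (with 4.57% and 4.42% of all genes tested called). It was between 4 and 6 without any other library (4.19 to 5.57%).

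Against anastrozole alone, the combination raised 1 member (1.49% of members, with 2.54% of genes of at least 1 CPM) and lowered 0 (with 1.75%), and 2.90% of all genes tested were called. Without overlap 5 members were above and 5 below anastrozole (7.46% each, with 11.4% and 10.1% of genes of at least 1 CPM). The called gene was HSPE1, at 8.66, 7.07 and 7.51 CPM in anastrozole and at 13.0, 10.2 and 7.94 CPM with both. These groups overlap, the SD with both agents was 2.55 CPM, and the call (log2 fold change 0.42, SE 0.13, adjusted p = 0.038) was lost in 4 of 10 other settings and without anastrozole b or c or combination a or b. HSPA8 was higher in the combination libraries, at 2176, 2081 and 2097 CPM, than in the anastrozole libraries, but was not called (log2 fold change 0.12, SE 0.041, adjusted p = 0.074). It passed with library size alone, with all 12 libraries in the fit, with the GC offset (with or without the block) and without anastrozole a.

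Between the single agents, anastrozole had 1 member lower than E2 (1.49% of members, with 1.04% of genes of at least 1 CPM) and 0 higher (with 0.922%), and 1.33% of all genes tested were called. Without overlap 2 members were above E2 (2.99%, with 7.23% of genes of at least 1 CPM) and 11 below it (16.4%, with 9.12%). The called member was HSPA8, at 2028, 1942 and 1851 CPM in anastrozole and at 2113, 2119 and 2166 CPM in E2. The groups were apart (log2 fold change -0.13, SE 0.033, adjusted p = 0.013). The call was lost in 4 of 10 other settings and without anastrozole b or any 1 of the E2 libraries. For HSPA13 and HSPA4L, which E2 raised, anastrozole had values between vehicle and E2. HSPA13 was at 112, 106 and 106 CPM and HSPA4L at 46.52, 43.96 and 46.07 CPM, and neither difference from vehicle was called (log2 fold changes 0.10 and 0.16, adjusted p = 0.38 and 0.22).

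The interaction term, fitted on all 12 libraries, asks whether the combination differs from the sum of the single-agent effects. It was called for 10 members, of which 5 had a positive and 5 a negative term (7.46% of members each). Among genes of at least 1 CPM 8.77% were positive and 7.23% negative, and 10.9% of all genes tested were called, so the members' shares were near the background. The negative terms belonged to HSPA13, HSPA14, HSPA4L, DNAJB4 and DNAJC27, whose level with both agents fell short of the sum, and the positive ones to HSPA8, HSPA1A, HSPA1B, DNAJC4 and DNAJC22. The means of the last 4 were lower with each single agent than with both. HSPA8 was lowest with anastrozole, at a mean of 1940 CPM against 2133 CPM with E2 and 2118 CPM with both. HSPA13 had a term of -0.28 (SE 0.065, adjusted p = 0.00067) and HSPA1A one of 0.29 (SE 0.082, adjusted p = 0.009). HSPA13 kept its call in 12 of 12 fits that left out a library, DNAJC22 in 9 of 12 and HSPA8 in 5 of 12. With the GC offset described below HSPA13 lost its call (-0.10, adjusted p = 0.48), while DNAJC22 and HSPA8 kept theirs. The count of called members was 5 without vehicle a, anastrozole b or E2 a (with 7.74%, 8.46% and 8.81% of all genes tested called). It was 6 without combination b (9.28%), 13 without anastrozole c (15.2%), and 7 to 10 without any other library (7.26 to 12%).

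Over the 6 comparisons and the interaction, 19 of the 67 members (28.4%) were called at least once, with 28.9% of genes of at least 1 CPM, so the members' share was near the background. The other 48 were called in none. Of the chaperonin subunits, CCT3 was at 371 to 390 CPM in vehicle, 366 to 377 CPM in anastrozole, 379 to 391 CPM in E2 and 384 to 393 CPM in the combination, and its ranges in vehicle and E2 overlapped. DNAJA1, the main cytosolic J-domain partner of HSPA8, was at 122 to 132 CPM in vehicle, 112 to 123 CPM in anastrozole, 126 to 136 CPM in E2 and 121 to 129 CPM in the combination. Its level in anastrozole lay below that in E2 without overlap, but the difference was not called (log2 fold change -0.14, SE 0.045, adjusted p = 0.11). With the GC offset it was called for anastrozole against vehicle. DNAJA3, the mitochondrial member of the same family, was at 72.1 to 80.6 CPM over all libraries.

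DNAJB11 was at 192 to 199 CPM in vehicle and at 203 to 212 CPM in E2, apart but not called (log2 fold change 0.09, SE 0.036, adjusted p = 0.078). DNAJC5, the cysteine string protein that serves HSPA8 on vesicles, was at 128 to 145 CPM over all libraries and was not called in any comparison. By location, 2 of the 8 mitochondrial members rose with E2 (HSPA9 and HSPD1), 1 of the 5 of the endoplasmic reticulum rose (HSPA13), and of the other 54 members 7 rose and 3 fell, where 8.92% of genes of at least 1 CPM rose and 8.79% fell. In the interaction 0 of the 8 mitochondrial members and 1 of the 5 of the endoplasmic reticulum were called, and among the other 54 there were 5 positive and 4 negative terms, where 8.77% and 7.23% of genes of at least 1 CPM were positive and negative. With so few members per location nothing is read from these counts.

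A measured property moved with these changes across genes. Across 10207 genes, the log2 fold change with E2 had a Spearman correlation of -0.54 with the GC content of a gene's exons, and across the 67 members it was -0.50. The values were -0.53 and -0.47 for anastrozole, -0.02 and -0.23 for the combination against vehicle, and 0.69 and 0.48 for the combination against E2. The interaction had 0.70 and 0.54. These are descriptions across genes of the same libraries, and genes are not replicates. The members have less GC than other genes, with a median of 43.7% against 48.3% for genes of at least 1 CPM. HSPA13 has 35.9%, HSPA4L 38.0% and DNAJB4 37.4%, while HSPA1A has 59.8%, HSPA1B 58.8% and DNAJC4 60.5%. HSP90AB1 with 49.1%, HSPA8 with 49.3% and DNAJC22 with 49.6% lie in the middle.

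**Figure D4:**
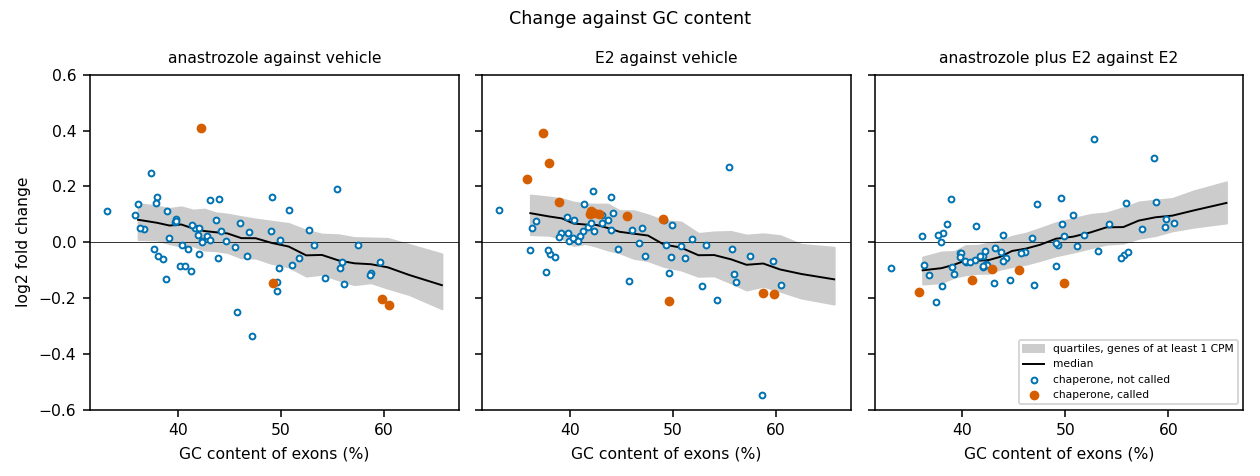
Log2 fold change against the GC content of exons in 3 comparisons, with the chaperone genes as points (filled where called) and, for genes of at least 1 CPM, the median as a line and the quartiles as a grey band in bins of GC. Genes low in GC lie higher with E2 and with anastrozole and lower with the combination against E2; called chaperone genes lie both inside and outside the band.

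When each library's trend on GC was removed as an offset, 5 members were called with E2 (7.46%, with 7.86% of all genes tested), 4 of them among the 13. The share of all genes called thus fell too, from the 12.0% given above. HSPA13 (log2 fold change 0.12, adjusted p = 0.03), HSPA4L (0.19, adjusted p = 0.012), HSP90AB1 (0.09, adjusted p = 0.0028) and DNAJC22 (-0.20, adjusted p = 0.014) kept their calls and DNAJC19 was added. The calls of HSP90AA1 (0.06, adjusted p = 0.058), DNAJB4 (0.30, adjusted p = 0.073), HSPA1A (-0.08, adjusted p = 0.41), HSPD1, HSPA9, CCT8, HSPA4, HSPA14 and HSPA1B were lost. With anastrozole 4 members were called (5.97%, with 3.05% of all genes tested). HSPA8 (-0.14, adjusted p = 7.8e-05) and DNAJC27 (0.36, adjusted p = 0.034) kept theirs, DNAJC4 and HSPA1A lost theirs, and CCT6A and DNAJA1 were added. With the combination against E2 only DNAJB6 remained (-0.16, adjusted p = 0.011; 1.49% of members, with 1.17% of all genes tested against 6.74% without the offset), and HSPA13 was at -0.07 (adjusted p = 0.52). Of the interaction terms HSPA8 (0.12, adjusted p = 0.024) and DNAJC22 (0.31, adjusted p = 0.021) remained, and CCT6A, DNAJC19 and HSPH1 were added (5 members, 7.46%, with 3.34% of all genes tested against 10.9% without the offset). The offset also added DNAJC13 and HSP90AB1 for the combination against vehicle, HSPA8 for the combination against anastrozole and HSP90AA1 for anastrozole against E2. In each of these 3 comparisons 2 members were then called (2.99%), with 5.98%, 2.07% and 2.36% of all genes tested. An offset of this kind also takes away any true change that follows GC, and which part of the trend is technical was not tested.

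**Figure D5:**
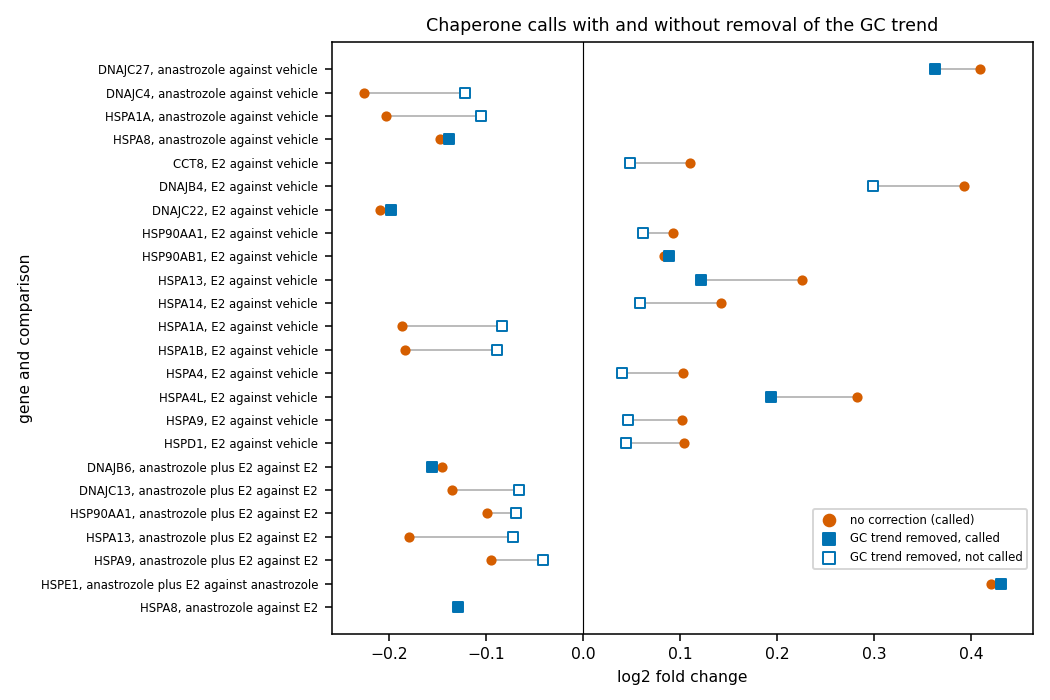
Log2 fold change of each called chaperone gene in the 6 comparisons of groups, without correction (circles) and after removal of each library's GC trend (squares, filled where the call remained). HSPA8, HSP90AB1, DNAJC22, DNAJC27, DNAJB6 and HSPE1 hardly moved, whereas HSPA13, HSPA9, HSPD1, CCT8, HSPA1A and HSPA1B moved toward 0.

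Partners of these chaperones that are not members were read from a list of 47 genes, of which 7 rose and 7 fell with E2 (14.9% each, with 8.92% and 8.79% of genes of at least 1 CPM). With anastrozole 1 rose (2.13%, with 2.06%) and 2 fell (4.26%, with 3.36%), and with the combination against vehicle 1 rose (2.13%, with 3.93%) and 0 fell (with 3.43%). In the combination against E2 7 were higher (14.9%, with 4.78%) and 3 lower (6.38%, with 5.22%), of which only SERPINH1 and UBB kept their calls with the GC offset. Against anastrozole the combination had 4 higher (8.51%, with 2.54%) and 0 lower (with 1.75%). Anastrozole against E2 had 1 higher (2.13%, with 0.922%) and 2 lower (4.26%, with 1.04%). The interaction had 11 positive (23.4%, with 8.77%) and 6 negative terms (12.8%, with 7.23%), and none of these interaction calls held with the GC offset. Among those that rose with E2 were HSF2, PTGES3, FKBP4, HSPB8, VBP1 and GRPEL2, and those that fell were AHSA1, CDC37, BAG6, STUB1, HSPBP1, HSPB1 and UBB. The E2 calls of HSF2, VBP1, CDC37, BAG6, STUB1 and HSPB1 were lost with the GC offset, as were all those with anastrozole against vehicle. Between the combination and anastrozole only LONP1 lost its call with the offset, and between anastrozole and E2 no partner did. FKBP4, a co-chaperone of steroid receptor complexes, was at 616 ± 16.4 CPM in vehicle, 577 ± 8.50 in anastrozole, 657 ± 13.7 in E2 and 676 ± 3.91 in the combination (SD, n = 3). It was the only one of the 47 called for the combination against vehicle (log2 fold change 0.13, SE 0.032, adjusted p = 0.0018), and it was also higher in the combination than with anastrozole alone (0.23, SE 0.042, adjusted p = 1.7e-05). Both calls held in all 10 other settings, the GC offset included, and in 6 of 6 fits that left out a library. FKBP4 was lower in anastrozole than in E2 as well (-0.18, SE 0.037, adjusted p = 0.00024, called in all 10 other settings and lost without E2 b). Its rise with E2 alone (0.09, SE 0.030, adjusted p = 0.02) was lost with limma-voom, with all 12 libraries, with the block, and without vehicle b, E2 b or E2 c. PTGES3, the p23 co-chaperone of HSP90, rose with E2 (0.11, SE 0.030, adjusted p = 0.0065) and fell with the combination against E2 (-0.10, SE 0.030, adjusted p = 0.024), the same directions as HSP90AA1. The first of these calls held with the GC offset (0.08, adjusted p = 0.039) but not with the block added, nor without vehicle c or E2 a. The second was lost with the GC offset (-0.07, adjusted p = 0.29), with library size alone and with all 12 libraries, and held in 1 of 6 fits that left out a library.

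HSPBP1, an exchange factor that inhibits HSP70, fell with E2 from 26.0 ± 2.40 to 19.5 ± 0.869 CPM (SD, n = 3; log2 fold change -0.41, SE 0.083, adjusted p = 3.2e-05) and was called in all 10 other settings and in 6 of 6 fits that left out a library. With anastrozole it also fell (-0.32, SE 0.092, adjusted p = 0.021), but this call was lost in 6 of 10 settings, the GC offset among them, and without vehicle a, vehicle c or anastrozole a. STUB1, the ubiquitin ligase that acts on HSP70 and HSP90 clients, fell with E2 (-0.20, SE 0.045, adjusted p = 0.00028), a call lost with the GC offset (-0.05, adjusted p = 0.6). HSPB1, a small heat shock protein, was at 1004 ± 75.8 CPM in vehicle and 873 ± 56.3 CPM in E2 (-0.20, SE 0.039, adjusted p = 0.00033), and was called in 3 of 10 other settings. GRPEL2, an exchange factor of mitochondrial HSP70, rose with E2 from 60.6 ± 1.48 to 71.96 ± 2.41 CPM (SD, n = 3; log2 fold change 0.25, SE 0.051, adjusted p = 5.7e-05), a call that held in all 10 other settings and in 6 of 6 fits that left out a library. It fell in the combination against E2 (-0.20, SE 0.047, adjusted p = 0.002), a call lost with limma-voom, with the GC offset and without combination b. SERPINH1, the collagen chaperone HSP47, and the ubiquitin gene UBB were higher in the combination than in E2 (0.22, adjusted p = 1e-06, and 0.17, adjusted p = 3.6e-06), in all 10 other settings and in 6 of 6 fits that left out a library.

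Of the heat shock factors, HSF2 rose with E2 (0.23, SE 0.082, adjusted p = 0.044), a call lost in 6 of 10 other settings and without any 1 of the 6 libraries. HSF4 was higher in the combination than in E2 (0.23, SE 0.049, adjusted p = 0.00036), lost only with the GC offset, alone or with the block. Their interaction terms were called too, at -0.40 for HSF2 (adjusted p = 0.013) and 0.25 for HSF4 (adjusted p = 0.015), and neither was called with the GC offset. HSF1 was at 75.8 ± 3.65, 68.8 ± 5.81, 69.6 ± 2.78 and 75.8 ± 1.92 CPM in vehicle, anastrozole, E2 and the combination. It was not called in any comparison of groups, and its called interaction term (0.27, SE 0.073, adjusted p = 0.005) was -0.0126 with the GC offset.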

How the data were processed

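Counts per gene were deposited by the authors as raw whole numbers without normalization, from reads of 12 libraries of T47D cells. Per the labels, reads were aligned to hg19 with TopHat2 2.0.14 and Bowtie2 2.2.6 and counted with HTSeq. The HTSeq version, strand setting and annotation are not given in the sources used here, so a gene and one that overlaps it on the opposite strand may not be separable, and reads placed in several positions were not counted. The labels call the RNA polyA while the library protocol names total RNA. Of all reads, 32.7 to 33.5% were on genes, with 0.572 to 0.605% ambiguous and 6.61 to 7.4% not unique (summary lines, left out of library sizes). No columns were left unmapped (0).

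Genes with 0 counts everywhere were removed, which left 21132. Fits used the 6 libraries of the groups compared, or all 12 for the interaction, in R 4.3.3 with edgeR 4.0.16 (TMM, robust quasi-likelihood F test, 2-sided, Benjamini-Hochberg over 21132 genes, 0.05). The standard error is the absolute log2 fold change over the square root of F, and intervals are at the 95% level. CPM are TMM-scaled. Alternatives were DESeq2's size factors, library size alone, filterByExpr, a mean of at least 1 CPM, DESeq2 1.42.0, limma-voom (limma 3.58.1), all 12 libraries, the replicate block, a GC offset (lowess with a span of 0.5 over genes of at least 3 log2 CPM), both together, and leaving out each library. Exon GC and transcript length came from GENCODE 44 lifted to GRCh37, matched by symbol for 21539 genes. On simulated counts for E2 against vehicle (21132 genes), 50 genes each were changed 1.25-fold, 1.5-fold, 2-fold and 3-fold. Of these 76%, 86%, 94% and 100% were called in the right direction, and 11 of all 189 calls were false. Changes below 1.25-fold, such as those of both HSP90 genes with E2, were not simulated. The drawn counts held no GC trend. The members, the gene lists and the tests were chosen with earlier results of these data known. Named members are those called in at least 1 comparison, the 2 with the highest mean CPM in each family, the heat-inducible genes and those at the 1 CPM limit, and called partner genes may be named. The members assigned to mitochondria or the endoplasmic reticulum are also named where their location is given. CCT2, CCT6A, CCT6P1, CCT6P3 and DNAJC19 were named after their values were seen, and so were the partner genes given with values.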

Additional observations from a re-analysis of the deposited data

Results flagged for a closer look

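For 10 chaperone genes the effect of anastrozole in the presence of E2 differed from its effect without E2 by the interaction term of edgeR (adjusted p under 0.05, all 12 libraries), with 10.9% of all genes tested called in the same fit. The members' shares were near those of genes of at least 1 CPM, with 7.46% in each direction against 8.77% positive and 7.23% negative. The log2 terms were -0.28 for HSPA13, -0.32 for HSPA4L, -0.20 for HSPA14, -0.46 for DNAJB4 and -0.44 for DNAJC27, which were raised by a single agent and less so by both. They were 0.14 for HSPA8, 0.29 for HSPA1A, 0.25 for HSPA1B, 0.30 for DNAJC4 and 0.33 for DNAJC22, which were lowered by a single agent and less so by both. Of these, HSPA8 (0.12) and DNAJC22 (0.31) were called after removal of the GC trend. HSPA8 was called in 5 of 12 fits that left out a library (lost without vehicle a or c, anastrozole b or c, E2 a or b, or combination a) and DNAJC22 in 9 of 12 (lost without vehicle a, anastrozole b or combination c). The other terms lost their calls with the GC trend removed. They were then -0.34 for DNAJC27, -0.29 for DNAJB4, -0.16 for HSPA4L, -0.10 for HSPA13, -0.06 for HSPA14, 0.09 for HSPA1A and DNAJC4, and 0.08 for HSPA1B, with adjusted p of 0.23 to 0.79. In groups of 3 no test for a single outlying library was made.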

How the results depend on the processing

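No called member changed direction under any alternative, and of 594 recomputed values 396 kept their call and 198 lost it. The interaction term of HSF1, a partner gene, reversed to -0.0126 with the GC offset and to -0.0120 with the block added. Called members numbered 4 for anastrozole against vehicle and 13 for E2 against vehicle (3.67% and 12.0%). Percentages in this section are the share called among all genes tested in the same fit. For anastrozole they became 2 with filterByExpr or a mean of at least 1 CPM (2.87% and 3.01%) and 1 with DESeq2 (1.18%). They became 0 with limma-voom (0.0663%), and 0 to 3 without 1 library (0.904 to 7.81%). For E2 they became 8 with DESeq2 (7.05%), 6 with limma-voom (6.96%) and 5 with the GC offset, alone or with the block (7.86% and 7.45%). They became 6 to 14 without 1 library (8.24 to 13.3%). The combination against vehicle went from 0 to 1 with limma-voom (2.21%) and 2 with the GC offset, alone or with the block (5.98% and 7.53%). It had 0 to 1 without 1 library (3.23 to 4.56%). Against E2 it went from 5 to 3 with limma-voom (2.67%) and 1 with the GC offset, alone or with the block (1.17% and 1.21%). It had 3 to 6 without 1 library (4.19 to 5.57%). Against anastrozole it went from 1 to 2 with library size alone, all 12 libraries or the GC offset (3.03%, 3.89% and 2.07%). It had 3 with the offset and the block (2.72%), and 0 to 2 without 1 library (1.11 to 8.07%). With either filter, DESeq2 or limma-voom it had 0 (2%, 2.13%, 1.16% and 0.473%). Anastrozole against E2 went from 1 to 2 with all 12 libraries or the GC offset, alone or with the block, 0 with either filter, DESeq2 or limma-voom, and 0 to 5 without 1 library. The interaction went from 10 to 6 with DESeq2 (7.51%) and 5 with limma-voom (7.33%) or the GC offset, alone or with the block (3.34% and 3.71%). It had 5 to 13 without 1 library (7.26 to 15.2%). The cause of these shifts was not tested.

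The replicate block alone gave 4, 11, 2, 5, 1, 1 and 10 called members in the same order (with 3.89%, 10.4%, 6.81%, 7.04%, 2.93%, 0.852% and 10.5% of all genes tested). Libraries with the same letter had correlated deviations of -0.13 to 0.33, not above 0.1 in every pair, so the letters were not taken as pairs. Letter a among the 3 treated groups had 0.215 to 0.333, and what libraries of a letter share is not stated. Over all genes tested, anastrozole against vehicle had 776 calls with edgeR, 238 with DESeq2 and 14 with limma-voom, and E2 against vehicle had 2537, 1433 and 1471. Depth limits HSPA6 and DNAJB7, at 8 to 20 counts a library, for which only changes well over those reported here could be detected.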
